A study of Oryza sativa with 6 samples.

Results

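The rice type 2C protein phosphatases (PP2Cs) were followed in embryonic axes of artificially aged seeds. Members were the probe sets that the array's gene annotation assigns to exactly 1 gene with a symbol or synonym of the form PP2C or OsPP2C and a number. This gave 55 genes and 72 probe sets, of 17905 genes and 57258 non-control probe sets on the array. A further 5 genes with such a name, OsPP2C41, OsPP2C49, OsPP2C50, OsPP2C65 and OsPP2C77, had no probe set of their own in the annotation and were not analysed here. Seeds of Oryza sativa cultivar Nipponbare were held for 3 days at 25 °C and 85% relative humidity, then for 14 days at 40 °C or 45 °C in the same humidity, and were then dried for 3 days at 25 °C in 32% relative humidity. The warm step is put at 15 days elsewhere in the labels. Per the labels, the milder treatment costs seeds their vigour and the harsher one their capacity to germinate, and no allele or transgene was involved. Each temperature had 3 arrays (Affymetrix Rice Genome Array), and seeds kept at 25 °C throughout were not analysed here. No label says whether the 3 samples of a temperature came from separate seed lots, so the p-values refer to the scatter among these samples alone, which can be technical.

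PP2Cs are metal-dependent enzymes that remove phosphate from serine and threonine residues. In plants they form a large family. Its clade A acts in the core of abscisic acid signalling: without the hormone these phosphatases switch off SnRK2 kinases (SAPKs in rice), and with it they are held by PYL/RCAR receptors, so that the kinases are released. Abscisic acid keeps mature seeds dormant and stress-tolerant, and members of other clades act on MAP kinases, receptor kinases and auxin-dependent growth.

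Levels are log2 GCRMA values, so a difference of 1 is a doubling of signal. Signals of different probe sets depend on their probes and are not compared with each other as transcript amounts. A gene counted as well expressed when its mean over the 6 arrays was at least 4 and as dim below that. Of the 55 genes, 49 were well expressed through 55 probe sets and 6 were dim. The dim ones were OsPP2C12 (mean 3.74), OsPP2C78 (3.02), OsPP2C69 (2.99), OsPP2C18 (2.92), OsPP2C31 (2.55) and OsPP2C33 (2.46), and they were not tested. Of the dim genes 5 had a lower mean and 1 a higher mean at 45 °C. With no minimum, 65.1% of all 17905 genes were lower, and the share among all dim genes was not computed. OsPP2C12 read 3.91, 4.39 and 4.33 at 40 °C and 3.60, 2.33 and 3.90 at 45 °C, with means on either side of the minimum (4.21 and 3.28). Its groups were separate by only 0.01 between the nearest arrays, and its probe set may match more than 1 transcript. OsPP2C54 (4.48) lay just inside the minimum and OsPP2C12 just outside it. Among dim probe sets of well expressed genes, that of OsPP2C73 at 3.98 was nearest to the minimum. The RNA was from whole axes, so fewer cells of a type and less RNA per cell cannot be told apart.

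No PP2C probe set passed the limma test between 45 °C and 40 °C at a Benjamini-Hochberg adjusted p of 0.05, where 0% of all 22214 tested probe sets and of the 11639 tested genes passed. The smallest adjusted p among members was 0.163. At an unadjusted limma p under 0.05, 12 of the 49 genes were lower at 45 °C, where 17.3% of all tested genes were, and 0 were higher, where 0.997% were. All arrays of one temperature lay below all arrays of the other for 12 members. Of these, 10 were lower at 45 °C, where 23.4% of all tested genes were, and 2 were higher, where 2.1% were. As shares of the 49 members these are 20.4% and 4.08%, both near the shares of all tested genes. The background differed by probe set: of all 22214 tested probe sets, 3962 had separate groups lower at 45 °C and 2408 higher. Of the 55 tested PP2C probe sets these were 10 and 2. By sign alone 35 members were lower (71.4%, against 78.7% of all tested genes) and 14 higher, with a median log2 change of -0.18 against -0.26 for all tested genes. Counted by probe set, 74.5% of those of the family and 64.4% of all tested ones were lower.

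The probe sets above the minimum were shifted between the temperatures, which bears on every sign given here. The tested probe sets had array medians between 6.45 and 6.55 in the 40 °C group, against 6.23 to 6.25 in the 45 °C group. Over all non-control probe sets the order was the opposite, with array medians of 3.08 to 3.13 in the 40 °C group against 3.20 to 3.21 in the 45 °C group, so the shift was not one common to the whole array. After centring each array on the median of its tested probe sets, the PP2C median was 0.07 and that of all tested genes -0.01. A further quantile normalization gave 0.03 and -0.07, and cyclic loess gave 0.02 and -0.08. The family median was 0.08 to 0.10 log2 units above the gene median on these 4 scales, while its sign differed between the deposited scale and the other 3. On the deposited scale this offset was 0.02 without array 2 at 40 °C, 0.00 without array 3 at either temperature, and -0.04 with no expression minimum, so it does not set the family apart. Of the 49 members, 36 had the same sign on all 4 scales. The share of all tested genes that did so was not computed.

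**Figure D1:**
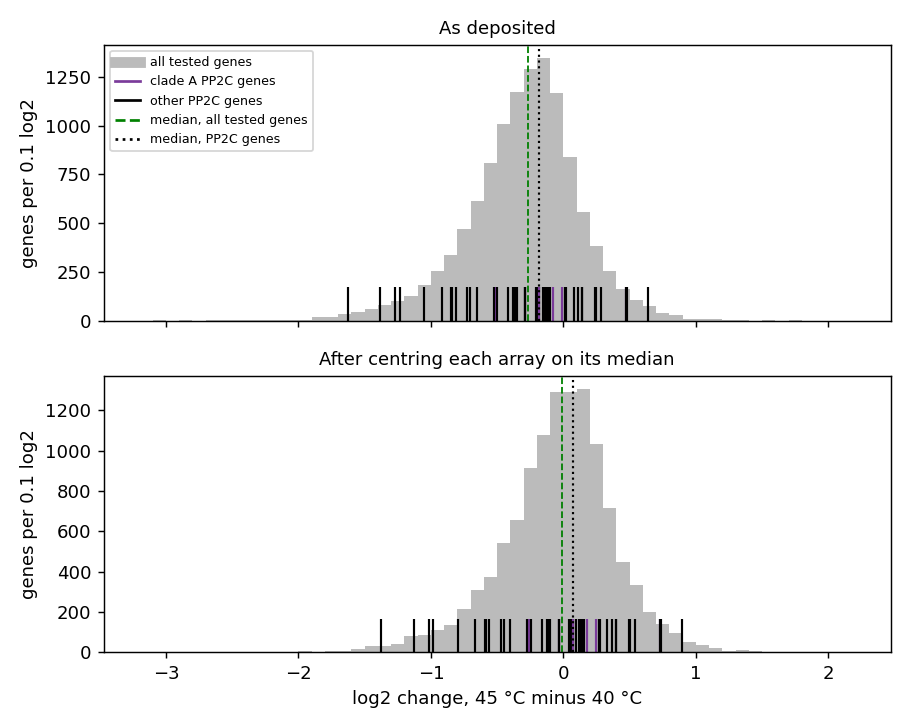
Histograms of the log2 change (45 °C minus 40 °C, x axis) of all 11639 tested genes (y axis, genes per 0.1 log2), as deposited and after centring each array on the median of its tested probe sets. Short lines at the base mark the 49 PP2C genes, with clade A in purple; the PP2C median lies at -0.18 in the upper panel and at 0.07 in the lower one, in each case within the main body of the histogram.

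Array 2 at 40 °C stood apart from the others. In the 5 sets of rice control transcripts that could be read, the 3-prime signal exceeded the 5-prime signal by a mean of 2.99 log2 units on this array, by 1.74 and 1.92 on arrays 1 and 3 at 40 °C, and by 1.66 to 2.03 at 45 °C. It held the highest 40 °C value for 29 of the 49 members and the lowest for 15. The same counts over all tested genes were not computed. The median deviation from the 6-array mean on this array was 0.23 for the members and 0.28 for all tested genes. Markers of endosperm, the starchy storage tissue of the seed, had medians over 11 genes of 8.70, 7.14 and 9.08 on 40 °C arrays 1 to 3 and of 7.94, 9.39 and 9.19 on 45 °C arrays 1 to 3. Of these 11 genes 9 reached the minimum and GLUB-4 and RA5 did not, and their summed linear signal was 5540 to 8029 at 40 °C and 5389 to 9616 at 45 °C. The embryo marker Emp1 read 13.66 at 40 °C and 13.58 at 45 °C, OSH1, a meristem gene of the axis, read 6.94 and 6.03 in its brighter probe set and 5.63 and 5.69 in the other, and of the markers of aleurone and scutellum 4 of 5, but of those of green tissue 0 of 4, reached the minimum. The part of these values in the PP2C results was not tested.

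Clade A was represented by 7 of its 10 genes, all well expressed. OsPP2C08, a clade A phosphatase, read 11.82, 12.06 and 11.59 on the 40 °C arrays and 11.53, 11.27 and 11.13 on the 45 °C arrays. All values at 45 °C were below all values at 40 °C, though the gap between the nearest arrays was small. The group means were 11.82 ± 0.23 (SD, n = 3) and 11.31 ± 0.20 (SD, n = 3), a log2 change of -0.51 ± 0.15 (SE) or a 1.43-fold higher signal at 40 °C, with a limma adjusted p of 0.19. The groups overlapped on the 3 other scales, on which the change was -0.26 (median centring), -0.38 (quantile normalization) and -0.40 (cyclic loess).

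OsPP2C09, which is induced by abscisic acid and drought and dampens the abscisic acid response, had the opposite sign. It read 8.002, 7.64 and 8.18 at 40 °C and 8.11, 8.76 and 8.38 at 45 °C. The groups overlapped, since the lowest 45 °C array fell below the highest 40 °C array. The log2 change was 0.47 ± 0.24 (SE) with a 95% interval of -0.08 to 1.03 and a limma adjusted p of 0.307. On the 3 other scales the groups no longer overlapped, with changes of 0.73 (median centring), 0.69 (quantile) and 0.70 (loess).

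The other 5 clade A genes differed little in mean, and their 2 groups overlapped. OsPP2C53 (ABIL2), a partner of abscisic acid receptors and SAPKs, read 7.58, 7.64 and 7.68 at 40 °C and 7.46, 7.72 and 7.49 at 45 °C. Its log2 change was -0.08 with a 95% interval of -0.51 to 0.35. OsPP2C06 (ABIL1) read 8.54, 8.86 and 8.82 at 40 °C and 8.45, 8.60 and 8.86 at 45 °C, a change of -0.11 with an interval of -0.53 to 0.31. These intervals leave room for a difference of about that of OsPP2C08, so equality was not shown.

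OsPP2C68 (OsPP108, OsSIPP2C1), a phosphatase induced by abscisic acid and salt, read 6.70, 7.27 and 7.005 at 40 °C and 6.93, 6.84 and 7.18 at 45 °C, a log2 change of -0.01 (95% interval -0.56 to 0.55). OsPP2C30, known to bind the receptor OsPYL/RCAR5, read 7.89, 8.79 and 8.34 at 40 °C and 7.87, 7.86 and 8.42 at 45 °C, a change of -0.29 (95% interval -0.93 to 0.36). OsPP2C51, which promotes germination in rice, read 6.59, 6.23 and 6.82 at 40 °C and 6.09, 6.31 and 6.69 at 45 °C, a change of -0.18 (95% interval -0.83 to 0.46). In these genes the arrays of the 2 temperatures were interleaved. OsPP2C06, OsPP2C51, OsPP2C53 and OsPP2C68 changed sign on the 3 other scales. Over the 7 clade A genes the median log2 change was -0.11 with 6 lower and 1 higher, and over the 42 other members it was -0.21 with 29 lower and 13 higher; this difference was not tested.

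**Figure D2:**
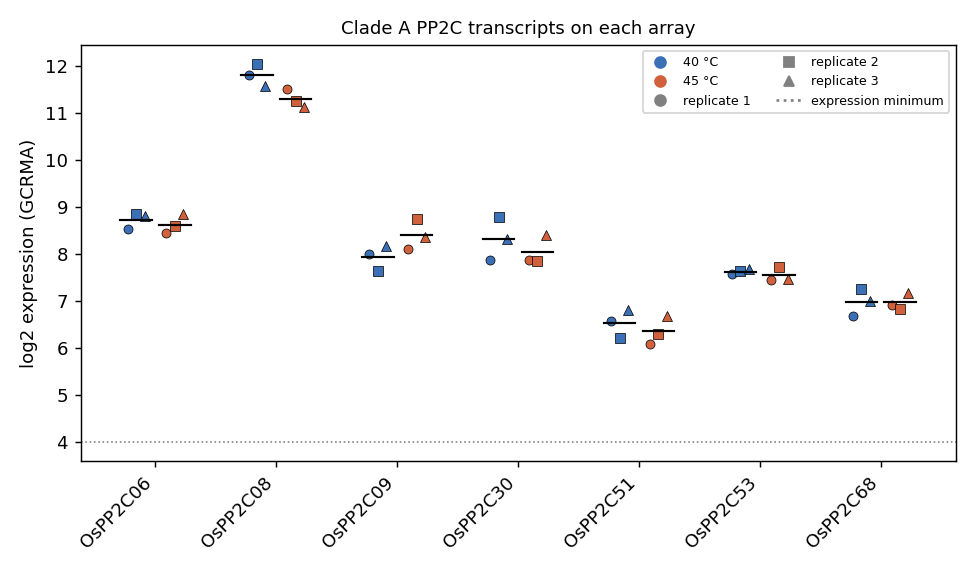
Log2 GCRMA expression (y axis) of the 7 clade A genes on each array, blue for 40 °C and orange for 45 °C, with the replicate shown by the symbol, a bar at each group mean and the expression minimum of 4 dotted. The colours are separated for OsPP2C08 alone, while OsPP2C09 has its highest value, 8.76, on a 45 °C array.

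The largest negative changes lay in members outside clade A. OsPP2C36 had the tightest 40 °C group, with 6.81, 6.77 and 6.79, against 5.98, 5.56 and 5.67 at 45 °C. The gap between the groups was wide beside the spread within them. The group means were 6.79 ± 0.02 (SD, n = 3) and 5.74 ± 0.22 (SD, n = 3), a log2 change of -1.05 ± 0.24 (SE) or a 2.07-fold higher signal at 40 °C, with a limma adjusted p of 0.172. OsPP2C54 read 4.95, 5.45 and 4.89 at 40 °C and 3.79, 3.98 and 3.82 at 45 °C, a change of -1.24 ± 0.24 (SE) and the smallest adjusted p of the family, 0.163.

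OsPP2C39 read 5.39, 5.17 and 5.81 at 40 °C and 3.34, 3.53 and 4.60 at 45 °C, the largest change of the 49 genes at -1.63 ± 0.38 (SE, limma adjusted p = 0.172). OsPP2C66 read 4.81, 6.06 and 5.24 at 40 °C and 4.38, 4.15 and 3.43 at 45 °C, a change of -1.38 ± 0.40 (SE, limma adjusted p = 0.182). For OsPP2C39, OsPP2C54 and OsPP2C66 the 45 °C mean was under the minimum of 4 (3.83, 3.86 and 3.99), so the size of these changes is uncertain. The probe set of OsPP2C39 is of the kind whose probes may match more than 1 transcript. A dim probe set of OsPP2C39 (mean 1.61) and the dim ones of OsPP2C66 (means 3.05 and 3.09) had overlapping groups. Their mean differences were -0.35, -1.10 and -0.08, in that order, and they were not tested.

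Further members with separate groups had smaller changes. OsPP2C40 (OsPP65), a negative regulator of salt and osmotic stress responses in rice, read 6.79, 7.19 and 7.10 at 40 °C and 6.42, 5.57 and 6.54 at 45 °C, a change of -0.85 ± 0.32 (SE). OsPP2C57 read 7.94, 8.15 and 7.65 at 40 °C and 7.39, 7.35 and 6.55 at 45 °C, a change of -0.81 ± 0.29 (SE). In both genes 1 of the 45 °C arrays lay well below the other 45 °C arrays, array 2 for OsPP2C40 and array 3 for OsPP2C57. OsPP2C13 (DCW11), a mitochondrial phosphatase linked to cytoplasmic male sterility in rice, read 7.80, 7.81 and 7.20 at 40 °C and 7.03, 7.18 and 6.48 at 45 °C, a change of -0.70 ± 0.28 (SE).

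OsPP2C62 read 7.27, 7.31 and 7.11 at 40 °C and 6.40, 6.98 and 6.35 at 45 °C, a change of -0.65 ± 0.25 (SE). OsPP2C34 (BIPP2C2), named as a benzothiadiazole-induced phosphatase, read 7.99, 8.45 and 8.14 at 40 °C and 7.67, 7.77 and 7.64 at 45 °C, a change of -0.50 ± 0.19 (SE). The nearest arrays of the 2 groups were 0.02 apart for OsPP2C13 and further apart for OsPP2C62 and OsPP2C34. The limma adjusted p of these 5 members, OsPP2C40, OsPP2C57, OsPP2C13, OsPP2C62 and OsPP2C34, was 0.213 to 0.242.

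Toward higher levels at 45 °C, 2 members had separate groups. OsPP2C67 read 7.95, 7.92 and 7.76 at 40 °C and 8.64, 8.35 and 8.05 at 45 °C, a log2 change of 0.47 ± 0.20 (SE, limma adjusted p = 0.263). OsPP2C61 read 4.49, 4.85 and 4.54 at 40 °C and 5.18, 5.76 and 4.86 at 45 °C, a change of 0.64 ± 0.30 (SE, limma adjusted p = 0.283). The lowest 45 °C array was close to the highest 40 °C array in both genes, and for OsPP2C61 the distance was 0.02.

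**Figure D3:**
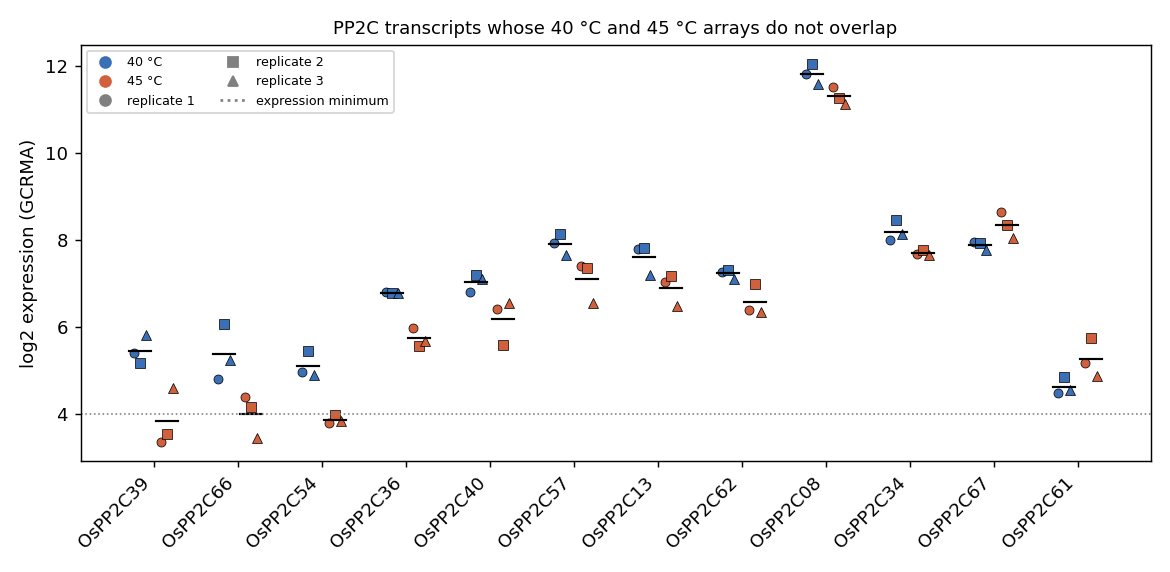
Log2 GCRMA expression (y axis) on each array of the 12 PP2C genes whose 40 °C (blue) and 45 °C (orange) arrays do not overlap, ordered by change, with bars at the group means and the expression minimum of 4 dotted. OsPP2C39, OsPP2C66 and OsPP2C54 have 45 °C means below the minimum, and OsPP2C67 and OsPP2C61, at the right, are the pair with higher values at 45 °C.

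The groups stayed separate on all 4 scales for 8 members. OsPP2C36, OsPP2C39, OsPP2C40, OsPP2C54, OsPP2C57 and OsPP2C66 were lower at 45 °C on each scale, and OsPP2C61 and OsPP2C67 were higher. These are 12.2% and 4.08% of the members, and 8.39% and 1.88% of all tested genes met the same conditions. The change of OsPP2C36 was -0.80 to -1.05 over the scales, and that of OsPP2C67 0.47 to 0.73. OsPP2C05 and OsPP2C28 had overlapping groups as deposited and higher, separate 45 °C groups on the other scales, with changes after median centring of 0.40 and 0.37.

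OsPP2C10 and OsPP2C21 had an unadjusted limma p under 0.05 with overlapping groups. OsPP2C10 read 8.22, 7.499 and 8.01 at 40 °C and 6.82, 7.54 and 7.19 at 45 °C, a change of -0.73 ± 0.28 (SE, limma adjusted p = 0.232). OsPP2C21 read 6.86, 7.36 and 6.96 at 40 °C and 6.91, 5.85 and 5.66 at 45 °C, a change of -0.92 ± 0.37 (SE, limma adjusted p = 0.24). The overlap was that of array 2 at 40 °C with array 2 at 45 °C for OsPP2C10, and that of array 1 at 45 °C with the lowest 40 °C array for OsPP2C21, whose probe set may also match other transcripts.

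The 8 members outside clade A with the brightest probe sets had changes between -0.37 and 0.24, and their groups overlapped. OsPP2C59 read 11.61, 11.61 and 11.80 at 40 °C and 11.44, 11.58 and 11.63 at 45 °C. Its change of -0.13 ± 0.10 (SE) had the narrowest interval of the family, -0.37 to 0.12. OsPP2C45 read 10.72, 10.65 and 10.47 at 40 °C and 10.64, 10.46 and 10.44 at 45 °C, a change of -0.10 (95% interval -0.39 to 0.18). For OsPP2C59 and OsPP2C45 a difference of 1 log2 unit therefore lies outside the interval.

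OsPP2C70 (-0.37 ± 0.17 SE), OsPP2C52 (-0.29 ± 0.20 SE), OsPP2C47 (-0.29 ± 0.18 SE), OsPP2C14 (-0.11 ± 0.17 SE) and OsPP2C44 (-0.11 ± 0.18 SE) were the other bright members with a negative sign. OsPP2C02 read 10.47, 8.87 and 10.38 at 40 °C and 9.89, 10.33 and 10.23 at 45 °C, a change of 0.24 ± 0.41 (SE). Its low value was on array 2 at 40 °C, and without that array the change was -0.28. OsPP2C71 likewise read 7.79, 5.95 and 8.50 at 40 °C and 7.85, 7.65 and 7.58 at 45 °C, with its lowest value on the same array. OsPP2C07 read 5.30, 7.21 and 5.67 at 40 °C and 3.19, 5.82 and 5.34 at 45 °C, a change of -1.27 ± 0.76 (SE), the widest error of the family.

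The 21 tested members not covered by the naming rule had changes of -1.27 to 0.48, with 11 lower and 10 higher and no unadjusted limma p under 0.0913. Among them, OsPP2C35 (XB15), which dephosphorylates the immune receptor kinase XA21, had a change of 0.08 ± 0.29 (SE). OsPP2C27, which restrains the cold response through a MAP kinase, had a change of 0.02 ± 0.29 (SE). The end of this range toward higher levels was OsPP2C11, with a mean of 5.88 (SD 0.56, n = 3) at 40 °C against 6.36 (SD 0.48, n = 3) at 45 °C. Of the 49 tested members, 37 had a 95% interval that included 0.

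**Figure D4:**
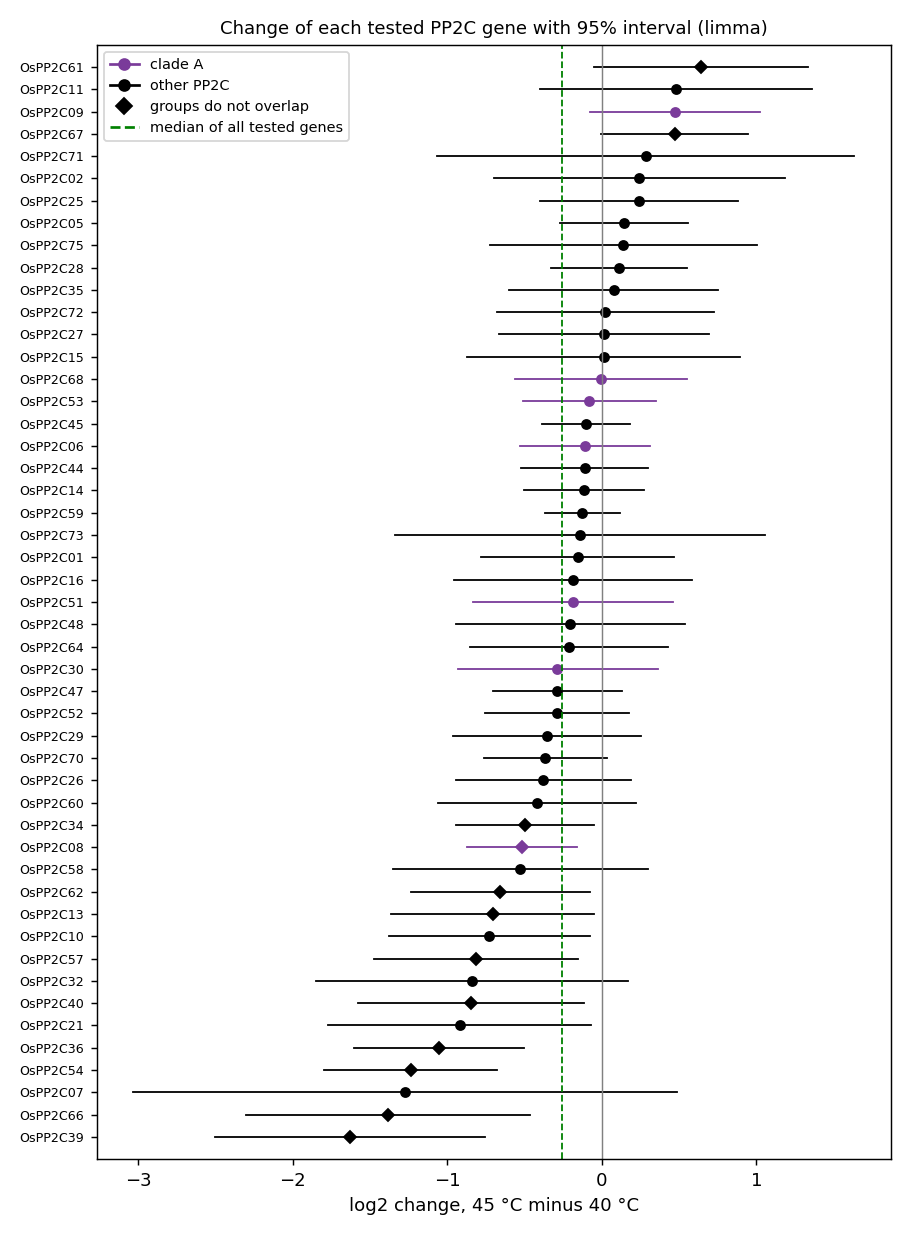
Log2 change at 45 °C minus 40 °C (x axis) of each of the 49 tested PP2C genes with its 95% limma interval, ordered by change, clade A in purple, diamonds for genes whose groups do not overlap, and a dashed line at the median of all tested genes (-0.26). The intervals of 37 genes include 0, and the clade A genes lie from -0.51 to 0.47.

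A further check came from the 6 genes with several tested probe sets. The signs agreed between the probe sets in 4 of them: OsPP2C47 had changes of -0.29 and -0.26, OsPP2C48 of -0.20 and -0.06, OsPP2C51 of -0.18 and -0.02, and OsPP2C07 of -1.27 and -0.75. They differed in OsPP2C71, with 0.28 and -0.17, and in OsPP2C75, with 0.14 and -0.29. For OsPP2C71 and OsPP2C75 the sign therefore depends on the probe set read. The probe set behind the 0.28 of OsPP2C71 may also match other transcripts. Dim probe sets of OsPP2C48 (mean 1.96) and OsPP2C75 (mean 2.84) were not tested. Their mean differences were 0.21 with overlapping groups and -1.41 with separate groups.

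Other genes of the signalling chain were read from lists of symbols, and none of their probe sets passed the limma adjusted threshold. Their tallies by sign stand against 78.7% of all tested genes being lower at 45 °C. All 10 SAPK genes were well expressed. Clade A phosphatases inactivate kinases of this family, though not every member need be a target. Of the 10 genes, 9 were lower and 1 higher at 45 °C with a median log2 change of -0.43. OsSAPK1 had the smallest p, with means of 10.95 ± 0.13 and 10.49 ± 0.07 (SD, n = 3 each) at 40 °C and 45 °C, a change of -0.45 ± 0.12 (SE, limma adjusted p = 0.175), and OsSAPK8 was the 1 with a positive sign at 0.04. Against this, the median of the clade A genes was -0.11, and whether kinases and phosphatases differ was not tested.

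The only receptor gene in the lists, OsPYL11, had a change of -0.37 ± 0.30 (SE). The transcription factor genes TRAB1 and OsVP1, which carry the abscisic acid response into transcription, had changes of -0.17 and -0.16, and ABF2 of 0.03. Among 7 abscisic acid-responsive LEA genes, whose proteins protect dry cells, 6 were lower and 1 higher with a median of -0.08; RAB16D had the smallest p (-0.52 ± 0.11 SE, limma adjusted p = 0.172) and RAB21 was the higher one at 0.05. In the list of abscisic acid metabolism 4 of 4 genes were lower with a median of -0.37, and ABA1 had the smallest p (-0.60 ± 0.27 SE). ABA8OX1 and ABA8OX2 had changes of -0.30 and -0.43. TRAB1, a transcription factor gene, is in this list too, through a synonym, and its smaller change enters the median.

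Of 12 tested MAP kinase genes, which include substrates of some PP2Cs, 10 were lower and 2 higher with a median of -0.25. The smallest p in each direction was that of a gene with the synonym MAPK6 (-0.76 ± 0.29 SE, limma adjusted p = 0.229) and of MPK4 (0.10 ± 0.19 SE). Catalytic genes of another phosphatase family, PP2A, had a median of -0.01 over 4 genes. PP2A4 was highest among them at 0.44 ± 0.19 (SE, limma adjusted p = 0.268) with separate groups, and PP2A2 lowest at -0.22 ± 0.21 (SE). The single SAUR gene on the array did not reach the minimum.

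**Figure D5:**
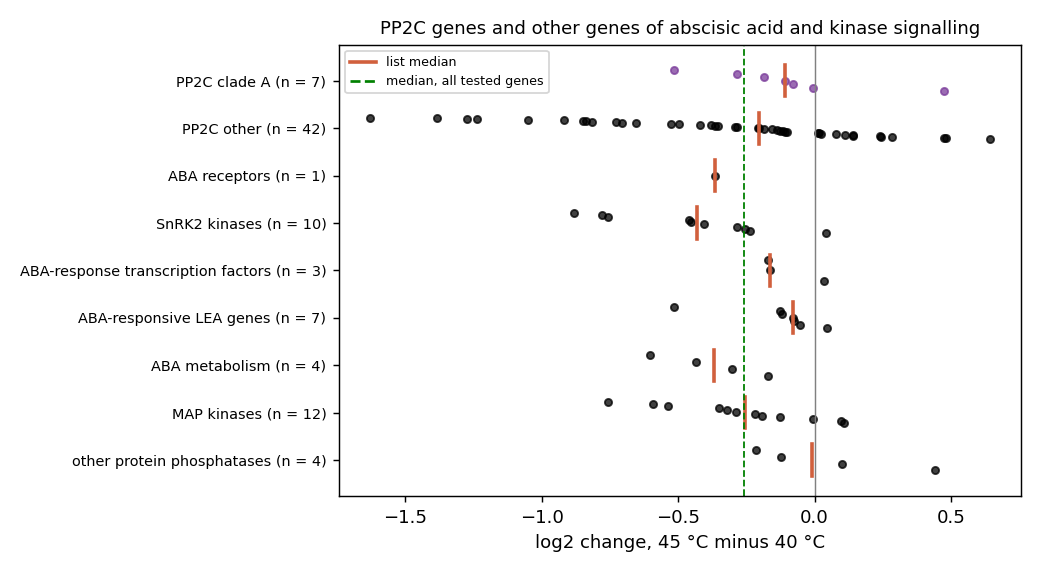
Log2 change at 45 °C minus 40 °C (x axis) of clade A PP2C genes, other PP2C genes and the other signalling lists, 1 point per tested gene, with an orange bar at the median of each list and a dashed line at the median of all tested genes (-0.26). The SnRK2 kinases have a median of -0.43 and the clade A phosphatases one of -0.11. The list of abscisic acid metabolism has a median of -0.37 and holds TRAB1 through a synonym.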

How the data were processed

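Each array has a deposited log2 value for every probe set, computed by the authors with GCRMA, per the submitters' processing notes. No version is given in the sources used here. As a method, GCRMA corrects background, quantile-normalizes arrays and summarises probes. Per the labels, 50 ng of total RNA was amplified and labelled with biotin. All value columns belonged to the 6 samples; the number of arrays limits the precision.

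Members and lists were chosen with earlier results of these data known. Names came from the platform annotation and the synonyms of assembly ASM3414082v1 (all 17905 genes matched). PYRB, PYRC and EME1, caught by list patterns through unrelated names, were left out. Clade A was taken by gene number.

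Non-control probe sets with a mean of at least 4 (22214) went into a limma fit (version 3.58.1, R 4.3.3; eBayes with an intensity trend), temperature as the only term, two-sided, Benjamini-Hochberg over all of them, and the step was tested on simulated data. A gene was read through its tested probe set of highest mean. Changes are given for tested clade A genes, the 8 other brightest members and up to 25 with an unadjusted p under 0.05 or separate groups; other tested members are given by range, and any named among them were chosen after their values were seen. Of each other list, the member of smallest p per direction is named. Further named list genes, and the count of separate groups over 4 scales, were also chosen after the values were seen.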

Additional observations from a re-analysis of the deposited data

How the results depend on the processing

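No PP2C probe set passed the adjusted threshold of 0.05 under any alternative run: no expression minimum, a minimum of 6, median centring, quantile normalization, cyclic loess, no intensity trend, array weights, the replicate block, each array left out in turn, and no shared-target probe sets. Of all 22214 tested probe sets, 193 passed with array weights and 69 without replicate 2 at 40 °C. A threshold of 0.1 was run on the main fit alone, and no member passed there. The smallest limma adjusted p of a member was 0.0533, for OsPP2C39 with array weights. With these weights OsPP2C54, OsPP2C36, OsPP2C66 and OsPP2C10 were under 0.1 as well. The median log2 change of the family was 0.07 with median centring, 0.03 with quantile normalization and 0.02 with cyclic loess. It ranged from -0.28 to -0.17 with each array left out in turn (-0.28 without replicate 3 at 40 °C or replicate 3 at 45 °C), where the median of all tested genes ranged from -0.32 to -0.19. Members with separate groups lower at 45 °C numbered 6 after median centring (8.5% of all tested genes) and 7 with quantile normalization (11.3%). With cyclic loess they numbered 7 (12.7%) and with a minimum of 6 also 7 (24.8%). Leaving out 1 array, where fewer arrays must separate and 28.9% to 34.1% of all tested genes did, gave 12 to 16 such members. There were 16 without replicate 1 or replicate 3 at 45 °C. Those higher at 45 °C numbered 5 with median centring (9.39% of all tested genes), 5 with quantile normalization (6.47%), 6 with cyclic loess (6.24%), 1 with a minimum of 6 (1.57%) and 2 to 5 when leaving out 1 array (5 without replicate 1 at 45 °C, and 2.82% to 5.43% of all tested genes).

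Of 28 named members, 19 kept their direction under every alternative run. On the centred, quantile-normalized and loess scales, in that order, the changes were 0.15, 0.09 and 0.11 for OsPP2C06, 0.14, 0.09 and 0.11 for OsPP2C14, 0.15, 0.11 and 0.10 for OsPP2C44, 0.15, 0.07 and 0.05 for OsPP2C45, 0.07, 0.05 and 0.05 for OsPP2C51, 0.18, 0.15 and 0.17 for OsPP2C53, and 0.25, 0.24 and 0.24 for OsPP2C68; OsPP2C59 was at 0.13 after median centring. With array weights OsPP2C02 was at -0.15 and OsPP2C68 at 0.05. Leaving out 1 array gave -0.28 to 0.53 for OsPP2C02 and -0.15 to 0.13 for OsPP2C68. The scalings lower or remove the shift among tested probe sets by construction; the cause of the other differences was not tested. OsPP2C39, OsPP2C54, OsPP2C61 and OsPP2C66 have no value with a minimum of 6, and OsPP2C21, OsPP2C39 and OsPP2C47 none from the same probe set without shared-target ones. Deviations of same-numbered arrays from their group means had correlations of -0.143 to 0.03, against -0.16 to 0.13 for arrays of different number. Such correlations cannot decide whether same-numbered samples shared a seed lot or batch, and the main fit had no pairing term. With the replicate block 0 members passed, and the smallest limma adjusted p was 0.283.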

Other observations

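OsPP2C08 and OsPP2C09, both of clade A, had opposite signs. The difference between their log2 values within an array is free only of a shift common to that whole array. The shift between the temperatures was not of that kind, so the difference may still hold part of it. The difference was 3.82, 4.42 and 3.41 on the 40 °C arrays and 3.41, 2.51 and 2.75 on the 45 °C arrays. The lowest 40 °C value and the highest 45 °C value were thus both 3.41, and the groups were not separate. The means were 3.88 ± 0.51 (SD, n = 3) and 2.89 ± 0.47 (SD, n = 3), a difference of -0.99. The pair was chosen after its values were seen, so no test is given.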
